A study of Mus musculus with 8 samples.

Results

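The 33 genes described here encode the glucose transporters, the enzymes of glycolysis from hexokinase to lactate dehydrogenase, the lactate exporter Slc16a3 and 4 enzymes of the pentose phosphate pathway. They were found by symbol among 23847 rows of a table of FPKM (fragments per kilobase of transcript relative to all mapped fragments of the library, a level per length), and each had 1 row. Their levels were compared between Med1cKO ventricles and WT ventricles. Med1 encodes a subunit of the Mediator complex, which links transcription factors to RNA polymerase II. In the 4 Med1cKO samples Med1 had been deleted in the heart. The 4 WT samples came from mice with floxed Med1 (Med1 fl/fl), and the labels call them WT. All 8 samples were ventricles of C57BL/6 mice at postnatal day 21, and their poly(A) RNA was made into stranded libraries. The sources used here do not give the promoter that drove the deletion, or say how many animals went into a sample. Nothing says that the samples are separate animals, so the p-values may reflect technical spread alone.

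Glycolysis splits glucose into pyruvate, and lactate dehydrogenase converts pyruvate and lactate into each other. The pentose phosphate pathway branches off after hexokinase and makes NADPH and ribose. Most steps have isoforms from separate genes, of which one is typical of adult heart or skeletal muscle and another is found in most cells and in the embryo. The adult heart mainly burns fatty acids, and takes up glucose largely through the insulin-responsive transporter GLUT4, while the fetal heart relies more on glycolysis.

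Med1 itself was at 7.80, 8.37, 7.89 and 9.15 FPKM in Med1cKO ventricles, against 15.52, 16.1, 10.6 and 16.8 FPKM in WT ventricles. Every Med1cKO library was below every WT library, and the mean was 56.3% of that in WT (log2 change -0.74 ± 0.13, limma adjusted p = 0.0011). FPKM summed to 481650 to 502549 in Med1cKO libraries and to 507458 to 536146 in WT libraries. Their fragment depth is unknown, since the values are not counts. Of the 11974 genes that averaged 1 FPKM or more, the median gene was 0.25 higher in Med1cKO on the log2(FPKM + 1) scale used for every log2 change here. Each change is therefore also read after rescaling the libraries by the median of ratios, which brought that median to 0.01, and, where it matters, after quantile normalization. As a background for the marker counts, 44.9% of all genes tested were called higher and 16.4% lower as deposited, and 26.9% and 26.7% when rescaled. All 7 cardiomyocyte markers fell under both scalings, with a summed level of 10470.0 to 14670.0 FPKM in Med1cKO libraries and 29670.0 to 35320.0 FPKM in WT libraries. Of 7 fibroblast markers 5 rose and none fell, or 3 and none when rescaled, and their sums were 832 to 1398 FPKM in Med1cKO libraries and 557.5 to 659.5 FPKM in WT libraries. Col1a1 and Col1a2 carried that difference, and without them the sums overlapped, at 499 to 792 FPKM in Med1cKO libraries and 463 to 549 FPKM in WT libraries. Of 7 smooth muscle and pericyte markers 4 rose and 1 fell, or 3 and 1 when rescaled, with sums of 759 to 1043 FPKM in Med1cKO libraries and 323 to 496 FPKM in WT libraries. Cnn1 alone separated those sums, which without it were 419.5 to 775 FPKM in Med1cKO libraries and 321 to 495 FPKM in WT libraries. Of 7 endothelial markers 2 rose and 2 fell, or none and 4 when rescaled, and their sums overlapped as deposited, at 261.5 to 329.9 FPKM in Med1cKO libraries and 253 to 329 FPKM in WT libraries. In such bulk samples fewer cells of a type and less RNA per cell cannot be told apart, and the part of these shifts in the changes below was not tested.

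As deposited, most muscle isoforms of glucose handling were lower in the Med1cKO ventricle and many of the broadly expressed isoforms were higher. Of the 31 members tested, 12 rose and 12 fell at an adjusted p under 0.05 (limma, Benjamini-Hochberg over 11974 genes). Of all genes tested 44.9% rose and 16.4% fell, 61.3% in all. As 12 of 31, the members that rose were a smaller share than over all genes, and those that fell were a larger share. The 12 that rose were Slc2a1, Hk1, Pfkp, Pfkfb3, Pgk1, Pgam1, Eno1, Pkm, Ldha, Slc16a3, G6pdx and Pgd. The 12 that fell were Slc2a4, Slc2a12, Hk2, Pfkm, Pfkfb1, Pfkfb2, Fbp2, Aldoa, Gapdh, Pgam2, Eno3 and Ldhb. Slc2a3 and Aldoc, which averaged under 1 FPKM, were not tested, and Slc2a12, Pfkfb1 and Slc16a3 reached that minimum through 1 group only. Slc2a8, Gpi1, Pfkl, Tpi1, Ldhd, Tkt and Taldo1 did not pass as deposited. Of the 31 members tested, 12 had every Med1cKO library above every WT library and 12 had every one below, the same 24 genes that were called. Over all genes tested these shares were 41.7% and 15.3%, 57.0% in all. After rescaling, 7 members rose and 15 fell, with 26.9% of all genes rising and 26.7% falling (53.6% in all). Hk1, Pfkfb3, Pgk1, Pkm and Ldha, called higher as deposited, were not called after rescaling. After quantile normalization 10 members rose and 11 fell, with 28.7% of all genes rising and 25.6% falling (54.3% in all). The median log2 change of the members was 0.015 as deposited against 0.25 for all genes, and -0.25 after rescaling against 0.01. Slc2a1, Pfkp, Pgam1, Eno1, Slc16a3, G6pdx and Pgd rose as deposited, rescaled and quantile normalized. Slc2a4, Slc2a12, Hk2, Pfkm, Pfkfb1, Pfkfb2, Fbp2, Pgam2, Eno3 and Ldhb fell under all 3 scalings.

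**Figure D1:**
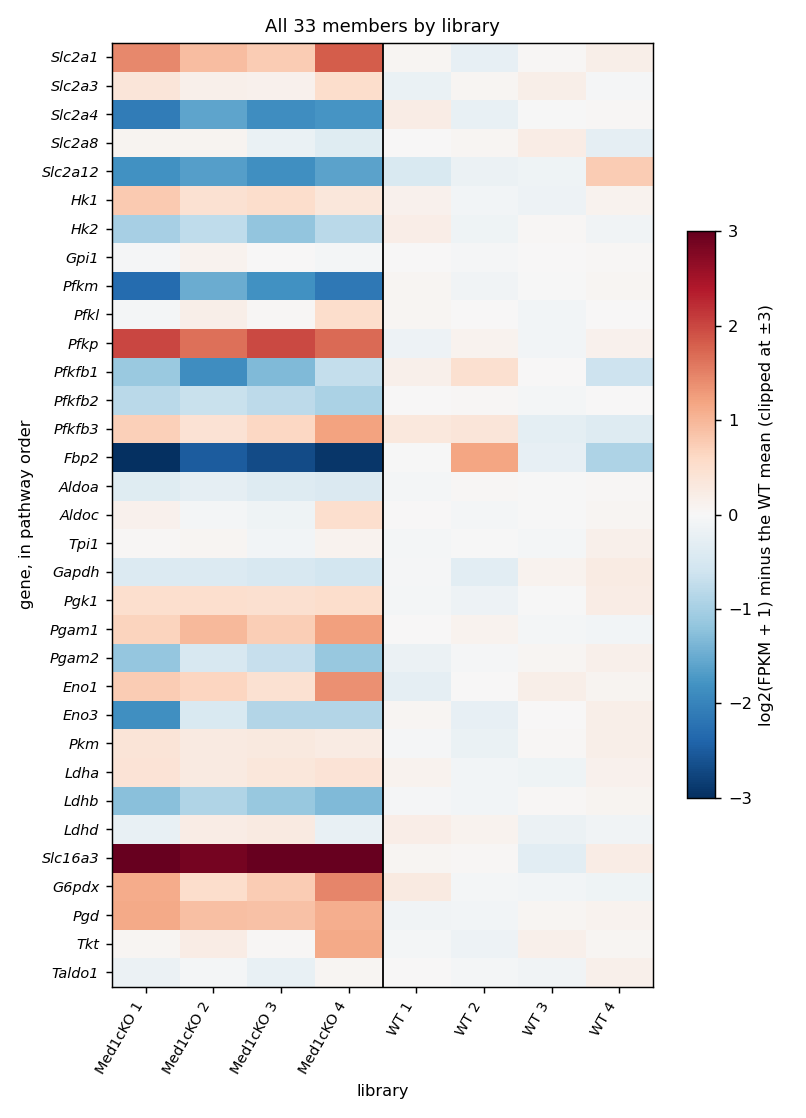
Level of each member in each library as log2(FPKM + 1) minus the WT mean of that gene, in pathway order from transport to the pentose phosphate enzymes, with the 4 Med1cKO libraries left of the 4 WT libraries and colours limited to changes of 3 in either direction. Slc16a3, Pfkp and Slc2a1 stand out as higher and Fbp2, Pfkm and Slc2a4 as lower in all 4 Med1cKO libraries.

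As a group the members made up less of the RNA in Med1cKO. Their summed level was 6720.0, 7577, 6973 and 6919 FPKM in Med1cKO libraries, against 8875, 8313, 9007 and 9761 FPKM in WT libraries. This was 1.39% to 1.51% of all FPKM in Med1cKO and 1.60% to 1.82% in WT. The sum is dominated by the 11 members with a mean of at least 100 FPKM, all of them glycolytic enzymes.

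Glucose enters the cardiomyocyte mainly through GLUT4, encoded by Slc2a4, which moves from stored vesicles to the cell surface on insulin or contraction. Slc2a4 (mm10, chr11:69942286-69948190) was at 33.1, 47.7, 39.01 and 42.1 FPKM in Med1cKO ventricles, against 168.5, 124, 144 and 149 FPKM in WT ventricles. The highest Med1cKO library was far below the lowest WT library, and the mean was 27.7% of that in WT (log2 change -1.83 ± 0.13, limma adjusted p = 4.75e-06). Slc2a12, which encodes GLUT12, another insulin-responsive transporter, was at 0.150, 0.293, 0.145 and 0.351 FPKM in Med1cKO ventricles, against 1.99, 2.59, 2.76 and 5.91 FPKM in WT ventricles. It fell in every Med1cKO library to under 1 FPKM, and its log2 change of -1.73 ± 0.24 (limma adjusted p = 0.000217) understates the fold because of the added 1 FPKM. With 0.1 FPKM added instead it was -3.28. GLUT1, encoded by Slc2a1 (chr4:119108745-119137329), is the basal transporter of most cells and of the fetal heart. Slc2a1 was at 10.3, 6.89, 6.08 and 13.6 FPKM in Med1cKO ventricles, against 3.30, 2.49, 3.27 and 3.68 FPKM in WT ventricles. Its mean was 289% of that in WT (log2 change 1.23 ± 0.22, limma adjusted p = 0.000865), and Med1cKO 1 and 4 were the highest. Slc2a8, the intracellular transporter GLUT8, averaged 6.785 ± 1.14 FPKM in Med1cKO and 7.32 ± 1.13 FPKM in WT (SD, n = 4 each), and the groups overlapped (limma adjusted p = 0.547). Slc2a3, the neuronal type transporter GLUT3, was at 0.978, 0.695, 0.669 and 1.20 FPKM in Med1cKO ventricles, against 0.335, 0.603, 0.728 and 0.4905 FPKM in WT ventricles, and was not tested because its mean was below 1 FPKM. Even after these changes Slc2a4 held 70.2% ± 5.87 of the summed level of the 5 transporters in Med1cKO, against 90.98% ± 1.26 in WT (SD, n = 4 each). The sum itself was 57.6 ± 6.27 FPKM in Med1cKO and 161 ± 18.4 FPKM in WT.

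RefSeq promoter windows (GRCm38.p6, the assembly named mm10 elsewhere), each from 250 bases before to 50 after a start site, were at hand for 31 members, with 49 windows in all, and none was used for Slc2a3 and Slc2a4. They were searched on both strands for 4 motifs. ACGTG, the core of the hypoxia response element, was in 42.9% of the members' windows and in 19.6% of all 32851 windows. CACGTG, the E-box, which contains ACGTG, was in 12.2% and 7.15%. The MEF2 consensus, bound by MEF2 factors in muscle genes, was in 4.08% and 3.19%, and TNAAGGTCA, an element of estrogen-related receptors, in 2.04% and 1.28%. The 17 genes with ACGTG include members that rose (Slc16a3, Slc2a1, Pgam1) and members that fell (Hk2, Pfkm, Fbp2). The window of Slc2a1 (chr4:119108495-119108794, plus strand), the transporter that rose, is given here with ACGTG in capitals. A match describes these letters and is not a measured binding site.
Slc2a1: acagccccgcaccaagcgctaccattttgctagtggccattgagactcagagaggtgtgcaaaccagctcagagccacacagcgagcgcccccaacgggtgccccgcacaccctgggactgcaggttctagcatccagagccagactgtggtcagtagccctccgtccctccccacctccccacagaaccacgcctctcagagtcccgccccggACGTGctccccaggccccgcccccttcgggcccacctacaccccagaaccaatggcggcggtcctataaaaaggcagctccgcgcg

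Hexokinase traps glucose in the cell by phosphorylating it. Hk2, the insulin-regulated isoform of heart and skeletal muscle, was at 27.8, 33.2, 24.48 and 31.9 FPKM in Med1cKO ventricles, against 65.5, 51.7, 58.1 and 53.1 FPKM in WT ventricles. It fell to 51.4% of the WT mean without overlap (log2 change -0.94 ± 0.11, limma adjusted p = 9.94e-05). Hk1, the isoform of brain, red cells and the fetal heart, was at 82.9, 66.7, 69.8 and 60.8 FPKM in Med1cKO ventricles, against 52.9, 45.1, 42.8 and 51.6 FPKM in WT ventricles. It rose as deposited (log2 change 0.53 ± 0.11, limma adjusted p = 0.00239), but with rescaled libraries the change was 0.25 (adjusted p = 0.0924) and with quantile normalization 0.27 (adjusted p = 0.0506). Hk1 and Hk2 together gave totals that overlapped as deposited, 99.4 ± 8.13 FPKM in Med1cKO and 105 ± 9.35 FPKM in WT. Rescaled, the totals did not overlap, at 81.6 to 99.8 in Med1cKO and 107 to 129 in WT. The mixture had Hk2 at 29.7% ± 4.82 of the total in Med1cKO and 54.25% ± 2.90 in WT (SD, n = 4 each). Dividing a whole library by a size factor does not change this mixture. Gpi1, the isomerase that follows, averaged 227 ± 12.3 FPKM in Med1cKO and 226 ± 4.71 FPKM in WT and did not pass the test as deposited (log2 change 0.01, limma adjusted p = 0.928). Rescaled, its change was -0.27 (adjusted p = 0.0171).

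The phosphofructokinase step, where glycolysis is committed, had less of the muscle subunit and more of the platelet subunit in Med1cKO. Pfkm, the muscle subunit, was at 80.9, 143.5, 114 and 90.15 FPKM in Med1cKO ventricles, against 424, 376.5, 400.1 and 419 FPKM in WT ventricles. All 4 Med1cKO libraries were below the lowest WT library, and their mean was 26.48% of that in WT (log2 change -1.94 ± 0.16, limma adjusted p = 1.21e-05). Pfkp, the platelet subunit, was at 101.5, 78.25, 99.2 and 81.2 FPKM in Med1cKO ventricles, against 21.96, 26.2, 22.99 and 26.6 FPKM in WT ventricles. Its mean was 368% of that in WT (log2 change 1.83 ± 0.11, limma adjusted p = 2.19e-06), and the groups lay far apart. Pfkl, the liver subunit, averaged 36.75 ± 7.13 FPKM in Med1cKO and 32.1 ± 1.49 FPKM in WT and did not pass the test (limma adjusted p = 0.243). In FPKM the gain of Pfkp was smaller than the loss of Pfkm. Pfkm, Pfkl and Pfkp summed to 234 ± 21.75 FPKM in Med1cKO and 461 ± 21.2 FPKM in WT (SD, n = 4 each). Pfkm was 45.3% ± 7.67 of this in Med1cKO and 87.7% ± 0.884 in WT.

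The bifunctional enzymes set the level of the sugar bisphosphate that activates phosphofructokinase. Pfkfb2, the heart isoform, was at 13.01, 14.49, 13.4 and 11.7 FPKM in Med1cKO ventricles, against 24.02, 24.1, 22.6 and 24.01 FPKM in WT ventricles, with little spread within either group. It fell to 55.55% of the WT mean (log2 change -0.805 ± 0.076, limma adjusted p = 2.47e-05). Pfkfb1, the isoform of liver and skeletal muscle, was at 0.997, 0.194, 0.721 and 1.63 FPKM in Med1cKO ventricles, against 3.79, 5.002, 3.33 and 1.80 FPKM in WT ventricles. It also fell (log2 change -1.25 ± 0.28, limma adjusted p = 0.00363), with Med1cKO 4 just below WT 4, and by -2.04 with 0.1 FPKM added in place of 1. Pfkfb3, the inducible isoform that favours glycolysis, was at 7.39, 5.835, 6.84 and 10.8 FPKM in Med1cKO ventricles, against 5.33, 5.53, 3.15 and 2.915 FPKM in WT ventricles. It rose as deposited (log2 change 0.74 ± 0.22, limma adjusted p = 0.014), but the adjusted p was 0.0636 after rescaling, 0.0532 after quantile normalization and 0.0695 without Med1cKO 4 and WT 4. Leaving out those libraries also moved its log2 change to 0.46. Fbp2, the muscle fructose bisphosphatase, which runs the step backwards, was at 0.827, 2.95, 2.46 and 1.94 FPKM in Med1cKO ventricles, against 21.1, 49.9, 17.8 and 10.8 FPKM in WT ventricles. It fell to 8.21% of the WT mean, with a log2 change of -2.93 ± 0.41 (limma adjusted p = 0.000234), and its WT libraries spread widely. By the ratio of means Slc2a12 fell further, to 7.10% of the WT mean.

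In the middle of the pathway, where 1 gene supplies most of each activity, differences depended on the scaling. Aldoa, the muscle aldolase and the most abundant member, was at 1231, 1318, 1214 and 1172 FPKM in Med1cKO ventricles, against 1521, 1617, 1579 and 1612 FPKM in WT ventricles. It fell as deposited (log2 change -0.36 ± 0.071, limma adjusted p = 0.00177) and rescaled (-0.64, adjusted p = 0.000222), but was 0.08 with quantile normalization (adjusted p = 0.34). Aldoc, the brain aldolase, was at 0.549 FPKM or less in every library, was listed at 0 in Med1cKO 3 and was not tested. Tpi1, the triose phosphate isomerase, averaged 530.3 ± 27.2 FPKM in Med1cKO and 519 ± 37.2 FPKM in WT, with overlapping libraries (limma adjusted p = 0.741), while rescaled it fell (log2 change -0.25, adjusted p = 0.0387). Gapdh, which makes the NADH of glycolysis, was at 861, 857, 814 and 776 FPKM in Med1cKO ventricles, against 1112, 915, 1219 and 1349 FPKM in WT ventricles. It fell as deposited (log2 change -0.46 ± 0.12, limma adjusted p = 0.00731) and rescaled (-0.74, adjusted p = 0.000988), with a change of -0.16 under quantile normalization (adjusted p = 0.223). Pgk1, the first ATP-forming enzyme, moved the other way, at 549.6, 550.3, 541 and 562 FPKM in Med1cKO ventricles, against 374, 351, 388 and 455 FPKM in WT ventricles. It rose as deposited (log2 change 0.50 ± 0.088, limma adjusted p = 0.000945) and quantile normalized (0.53, adjusted p = 0.000692), whereas rescaled it was 0.22 (adjusted p = 0.0869). For Aldoa, Gapdh and Pgk1 the Med1cKO and WT libraries did not overlap as deposited, yet none of them passed the test under all 3 scalings. Gapdh and Ldha have processed pseudogenes in the mouse genome, so part of their reads may be split with copies.

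Phosphoglycerate mutase showed the exchange again. Pgam2, the muscle isoform, was at 200.5, 324, 276 and 205 FPKM in Med1cKO ventricles, against 396, 438, 472 and 500.4 FPKM in WT ventricles. It fell to 55.6% of the WT mean (log2 change -0.87 ± 0.16, limma adjusted p = 0.00115), with Med1cKO 2 and 3 nearer to WT than Med1cKO 1 and 4. Pgam1, the isoform of brain and most other tissues, was at 69.3, 85.65, 73.1 and 102 FPKM in Med1cKO ventricles, against 43.7, 46.7, 41.7 and 40.7 FPKM in WT ventricles. It rose in all 4 Med1cKO libraries (log2 change 0.90 ± 0.12, limma adjusted p = 0.000167). The promoter windows of this pair are shown as an example of isoforms of 1 step that changed in opposite directions. At other such steps ACGTG was in windows of Hk1, Pfkfb3 and Ldha, which rose as deposited, and of Hk2, Pfkm and Pfkfb2, which fell. It was in no window of Pfkp or Eno1, which rose, or of Eno3 or Ldhb, which fell. The MEF2 consensus was in windows of only 2 members, Pgam2 and Pfkfb1. Pgam1 (chr19:41911621-41911920, plus strand) holds ACGTG and Pgam2 (chr11:5803747-5804046, minus strand) holds the MEF2 consensus, each in capitals.
Pgam1: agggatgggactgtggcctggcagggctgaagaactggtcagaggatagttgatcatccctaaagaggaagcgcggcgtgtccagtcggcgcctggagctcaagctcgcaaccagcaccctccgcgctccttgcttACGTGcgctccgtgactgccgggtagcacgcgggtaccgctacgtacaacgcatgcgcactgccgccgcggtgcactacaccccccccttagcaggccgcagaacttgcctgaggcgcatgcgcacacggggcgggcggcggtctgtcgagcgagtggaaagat
Pgam2: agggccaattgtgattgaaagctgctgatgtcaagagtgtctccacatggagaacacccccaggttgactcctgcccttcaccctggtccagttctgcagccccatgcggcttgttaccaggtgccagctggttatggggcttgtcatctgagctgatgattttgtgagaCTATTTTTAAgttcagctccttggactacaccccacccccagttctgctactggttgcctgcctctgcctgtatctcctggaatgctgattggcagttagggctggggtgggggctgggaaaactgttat

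Enolase makes phosphoenolpyruvate. Eno3, its muscle form, was at 343.5, 901, 673 and 663 FPKM in Med1cKO ventricles, against 1274, 1041, 1232 and 1394 FPKM in WT ventricles. It fell (log2 change -1.01 ± 0.25, limma adjusted p = 0.00685), with a wide spread among the Med1cKO libraries, of which Med1cKO 2 lay not far under WT 2. Eno1, the form of most tissues, was at 79.6, 73.4, 64.2 and 122 FPKM in Med1cKO ventricles, against 38.3, 47.3, 52.48 and 49.6 FPKM in WT ventricles. It rose (log2 change 0.81 ± 0.19, limma adjusted p = 0.00428; rescaled 0.53, adjusted p = 0.0309), and Med1cKO 4 was the highest. A near-identical copy, Gm5506, which can take reads from Eno1, was at 19.7, 7.68, 17.55 and 8.54 FPKM in Med1cKO ventricles, against 9.84, 3.79, 3.97 and 12.9 FPKM in WT ventricles, and the split of reads between the copies is uncertain.

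At the end of the pathway the muscle subunit of lactate dehydrogenase had the larger mean share in Med1cKO and the heart subunit in WT. Ldhb, the heart subunit, which favours the use of lactate, was at 533, 675, 577 and 506 FPKM in Med1cKO ventricles, against 1240.0, 1196, 1295 and 1341 FPKM in WT ventricles. It fell to 45.2% of the WT mean (log2 change -1.15 ± 0.10, limma adjusted p = 1.5e-05). Ldha, the subunit of skeletal muscle and of most glycolytic cells, was at 729.8, 660.5, 695 and 730.0 FPKM in Med1cKO ventricles, against 592, 517.5, 500.3 and 597.5 FPKM in WT ventricles. It rose as deposited (log2 change 0.35 ± 0.085, limma adjusted p = 0.00529) and quantile normalized (0.38, adjusted p = 0.00383), but was 0.07 after rescaling (adjusted p = 0.505). Ldhb made up 44.8% ± 4.28 of the 2 subunits' summed level in Med1cKO, against 69.7% ± 1.85 in WT (SD, n = 4 each). Pkm, pyruvate kinase, was at 815, 756, 763.5 and 735.5 FPKM in Med1cKO ventricles, against 612, 546, 635 and 709 FPKM in WT ventricles. Like Ldha it rose as deposited (log2 change 0.30 ± 0.091, limma adjusted p = 0.0167) and quantile normalized (0.37, adjusted p = 0.00549) and not after rescaling (0.02, adjusted p = 0.873), and gene-level FPKM do not separate its splice forms. Ldhd, the mitochondrial enzyme for D-lactate, averaged 13.4 ± 2.73 FPKM in Med1cKO and 13.1 ± 1.745 FPKM in WT (limma adjusted p = 0.937).

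Slc16a3, which encodes MCT4, the lactate exporter of fast glycolytic muscle, had the largest rise of all members. Slc16a3 (mm10, chr11:120948484-120959000) was at 29.9, 13.4, 22.2 and 22.55 FPKM in Med1cKO ventricles, against 1.06, 1.02, 0.575 and 1.31 FPKM in WT ventricles. Its mean was 22.2 times that in WT, where it lay at about 1 FPKM (log2 change 3.49 ± 0.22, limma adjusted p = 2.64e-06). Slc16a1, which encodes MCT1, the lactate importer of heart muscle, is no member and was chosen after its values were seen; it averaged 91.4 ± 12.1 FPKM in Med1cKO and 76.1 ± 9.46 FPKM in WT, with overlapping libraries (limma adjusted p = 0.0908). The promoter window of Slc16a3 (chr11:120948817-120949116, plus strand) is given here as that of the largest rise, with ACGTG in capitals at 2 places.
Slc16a3: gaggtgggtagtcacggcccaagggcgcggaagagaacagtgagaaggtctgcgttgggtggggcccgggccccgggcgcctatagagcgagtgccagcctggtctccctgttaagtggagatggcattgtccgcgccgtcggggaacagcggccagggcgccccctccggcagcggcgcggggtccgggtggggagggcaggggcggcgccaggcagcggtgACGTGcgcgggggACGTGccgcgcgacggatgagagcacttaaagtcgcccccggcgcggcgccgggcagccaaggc

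In the pentose phosphate pathway the 2 oxidative enzymes rose and the 2 non-oxidative enzymes did not pass the test as deposited. G6pdx, which opens the pathway and makes NADPH, was at 9.16, 5.785, 6.99 and 12.03 FPKM in Med1cKO ventricles, against 4.67, 3.56, 3.47 and 3.33 FPKM in WT ventricles. It rose with no overlap (log2 change 0.96 ± 0.19, limma adjusted p = 0.00186), highest in Med1cKO 4. Pgd, the second NADPH-forming enzyme, was at 33.75, 28.4, 27.99 and 32.9 FPKM in Med1cKO ventricles, against 13.7, 14.02, 15.6 and 16.15 FPKM in WT ventricles. Its mean was 207% of that in WT, with little spread (log2 change 0.999 ± 0.090, limma adjusted p = 1.94e-05). Tkt, transketolase, was at 9.23, 10.4, 9.055 and 20.4 FPKM in Med1cKO ventricles, against 8.41, 7.85, 9.80 and 9.16 FPKM in WT ventricles. Only Med1cKO 4 stood apart, and the limma adjusted p was 0.182. Taldo1, transaldolase, averaged 67.9 ± 5.90 FPKM in Med1cKO and 72.9 ± 5.64 FPKM in WT (limma adjusted p = 0.33), while rescaled it fell (log2 change -0.38, adjusted p = 0.00682).

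**Figure D2:**
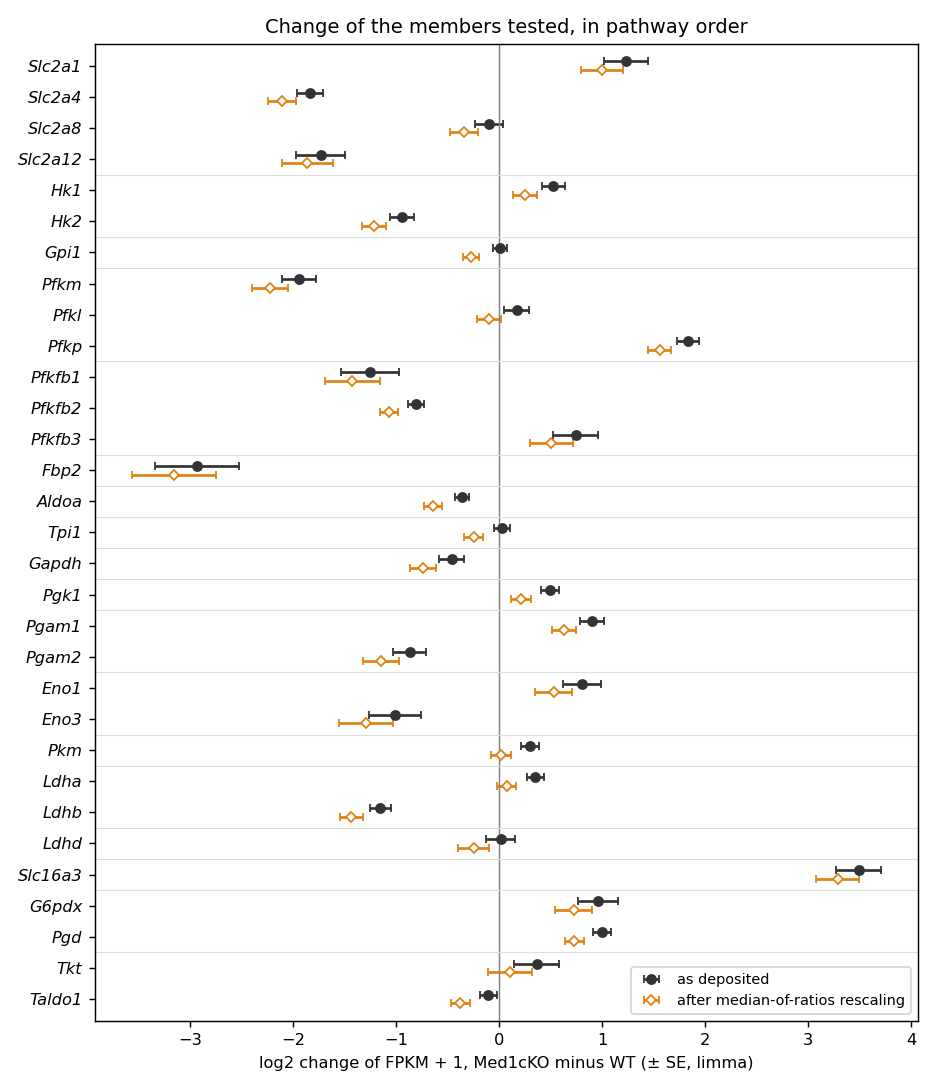
Log2 change of each tested member, Med1cKO minus WT, on the log2(FPKM + 1) scale with its limma standard error, for the levels as deposited (black circles) and after median-of-ratios rescaling (orange diamonds). Slc16a3, at 3.49 and 3.29, and Fbp2, at -2.93 and -3.15, lie at the ends, while Pkm and Ldha come close to 0 when rescaled.

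To compare isoforms without any scaling of libraries, the level of the muscle or heart isoform was divided by that of the broadly expressed isoform within each library. For lactate dehydrogenase the heart subunit Ldhb was divided by Ldha, the subunit of skeletal muscle and of most glycolytic cells. The ratio was lower in every Med1cKO library than in every WT library at all 7 steps tested. With 4 libraries against 4, the exact two-sided permutation test gave p = 0.0286 for each ratio, the smallest that 70 assignments allow, and 0.0286 after Benjamini-Hochberg adjustment over the 7. The pairs were chosen with changes of their genes already known, so these p-values are not independent evidence of their direction. An aldolase ratio was not formed because Aldoc is listed at 0 in Med1cKO 3.

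The ratio of Slc2a4 to Slc2a1 was 3.23, 6.92, 6.41 and 3.10 in Med1cKO ventricles, against 51.02, 49.7, 44.2 and 40.4 in WT ventricles. GLUT4 transcripts thus outnumbered GLUT1 transcripts per length in every library, but by a geometric mean 10.04-fold lower in Med1cKO (log2 difference -3.33). The ratio of Pfkm to Pfkl plus Pfkp was 0.611, 1.25, 0.867 and 0.704 in Med1cKO ventricles, against 7.64, 6.405, 7.55 and 7.11 in WT ventricles. Only Med1cKO 2 still had more Pfkm than the other subunits together, and the ratio was 8.665-fold lower in Med1cKO (log2 difference -3.115). The ratio of Hk2 to Hk1 was 0.335, 0.498, 0.351 and 0.524 in Med1cKO ventricles, against 1.24, 1.15, 1.36 and 1.03 in WT ventricles. Hk2 was the more abundant hexokinase in all 4 WT libraries and the less abundant in all 4 Med1cKO libraries (log2 difference -1.50, 2.83-fold). For Ldhb to Ldha the ratio was 0.731, 1.02, 0.830 and 0.693 in Med1cKO ventricles, against 2.09, 2.31, 2.59 and 2.24 in WT ventricles. Here too the order of the isoforms turned over, in 3 of 4 Med1cKO libraries (log2 difference -1.51, 2.84-fold).

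At the remaining steps the muscle or heart isoform stayed the more abundant of the pair in every library. The ratio of Eno3 to Eno1 was 4.315, 12.3, 10.48 and 5.44 in Med1cKO ventricles, against 33.25, 22.03, 23.49 and 28.1 in WT ventricles, with a log2 difference of -1.83. For Pgam2 to Pgam1 it was 2.89, 3.78, 3.775 and 2.01 in Med1cKO ventricles, against 9.06, 9.39, 11.3 and 12.3 in WT ventricles, with a log2 difference of -1.79. Pfkfb2 to Pfkfb3 gave 1.76, 2.48, 1.95 and 1.09 in Med1cKO ventricles, against 4.51, 4.36, 7.155 and 8.235 in WT ventricles, with a log2 difference of -1.74. Med1cKO 4 had the lowest ratio for Pgam and for Pfkfb, and Med1cKO 1 for enolase.

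**Figure D3:**
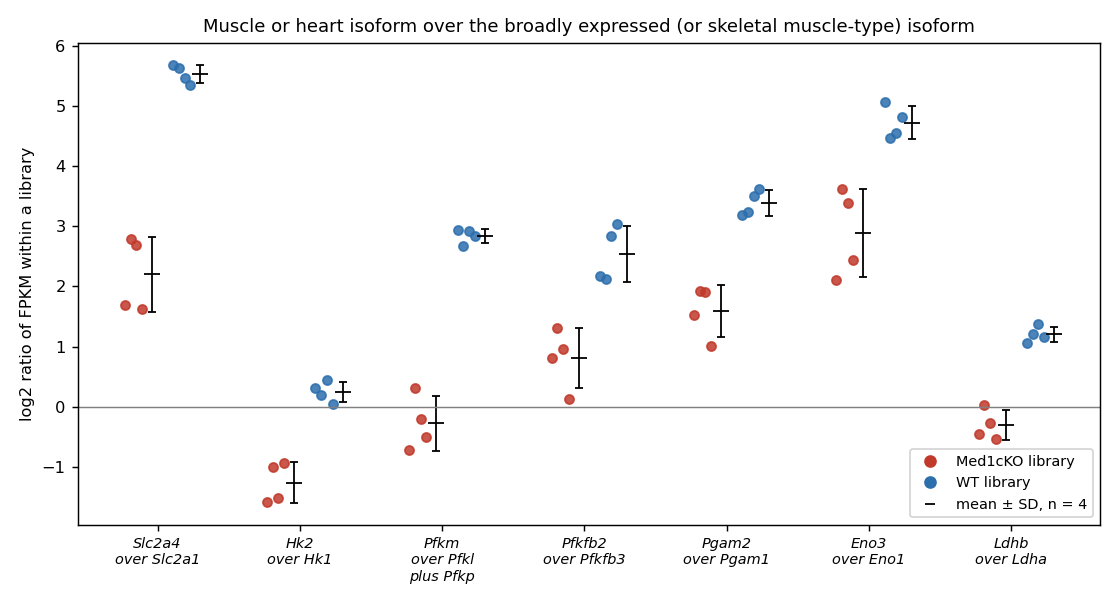
Ratio of the muscle or heart isoform to the broadly expressed isoform in each library on a log2 scale for 7 steps. For lactate dehydrogenase it is Ldhb, the heart subunit, over Ldha, the subunit of skeletal muscle and of most glycolytic cells. Med1cKO is left of WT, each dot is 1 library and the bar is the mean with its SD (n = 4 each). No Med1cKO library reaches the lowest WT library at any step, and the gap is widest for the transporters, with a difference in means of -3.33.

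The levels of the isoforms of each step were also summed. In these bulk samples the isoforms of a step may come from different cells, so the sums do not show compensation within a cell. As a percentage of the WT mean, the summed level in Med1cKO was 94.5% for hexokinase, 70.2% for lactate dehydrogenase, 69.3% for the bifunctional enzymes Pfkfb1, Pfkfb2 and Pfkfb3, 67.4% for phosphoglycerate mutase, 56.9% for enolase, 50.7% for phosphofructokinase and 35.85% for the 5 transporters. Every Med1cKO library was below every WT library in these sums, except for hexokinase as deposited. After rescaling the hexokinase sum was also below WT without overlap, at 77.9% of the WT mean. The lactate dehydrogenase sum was 1277 ± 42.2 FPKM in Med1cKO and 1820.0 ± 93.35 FPKM in WT, and the enolase sum 729.9 ± 229 FPKM in Med1cKO and 1282 ± 146.5 FPKM in WT (SD, n = 4 each).

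**Figure D4:**
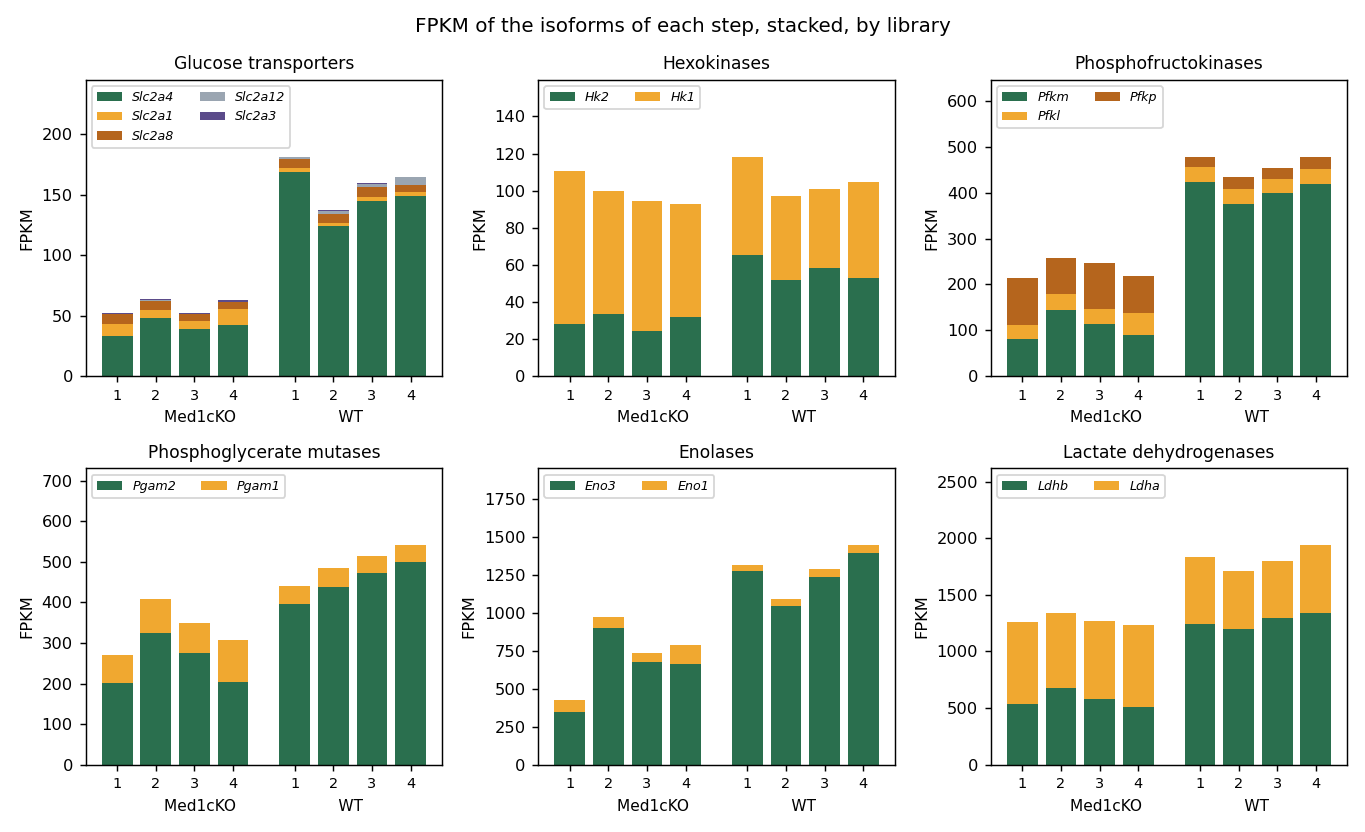
Summed FPKM of the isoforms at 6 steps in each library, stacked by isoform on axes that start at 0, with the 4 Med1cKO libraries left of the 4 WT libraries. As deposited, hexokinase totals overlap between the groups while the mixture differs, and the phosphofructokinase total is 234 FPKM in Med1cKO against 461 FPKM in WT.

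The order of the Med1cKO libraries was shared by many members. As deposited, of the 12 genes that fell, Med1cKO 2 had the highest level among Med1cKO libraries in 9. Among the 12 that rose, Med1cKO 4 had the highest in 7 and Med1cKO 1 in 5. The lowest of those 12 was Med1cKO 2 in 5 genes and Med1cKO 3 in 4. The same counts over all called genes are not given, so the order is not shown to be particular to the members. Med1cKO 2 had the smallest size factor of its group, 1.063, and Med1cKO 4 the largest, 1.136. The part of this scaling in the order was not tested. Med1cKO 2 also had the highest sum of cardiomyocyte markers in its group, 14670.0 FPKM, and the lowest of fibroblast markers, 832 FPKM, whereas Med1cKO 4 had the highest fibroblast sum, 1398 FPKM. The part of these sums in the order of the libraries was not tested. The red blood cell markers, none of which passed the test, summed to 1206 to 10350.0 FPKM in Med1cKO libraries and 1358 to 7050.0 FPKM in WT libraries, highest in Med1cKO 4 and WT 4. Nerve and Schwann markers summed to 3.11 to 17.7 FPKM in Med1cKO libraries and 2.04 to 3.44 FPKM in WT libraries, again highest in Med1cKO 4. The 1 nerve marker that was tested did not pass. Of 8 immune markers 6 were tested, of which 1 rose and none fell as deposited, and none was called when rescaled. The sums of the 8 were 28.9 to 58.6 FPKM in Med1cKO libraries and 33.7 to 44.3 FPKM in WT libraries. The skeletal muscle markers Myh2, Myh4 and Myog were under 1 FPKM in every library, Myog at 0 throughout. Of the 2 markers of that list that were tested, 1 rose and 1 fell, as deposited and rescaled. Tnnt3 rose, at 11.7, 3.42, 4.29 and 4.10 FPKM in Med1cKO ventricles, against 0.0964, 0.269, 0.402 and 0.377 FPKM in WT ventricles (log2 change 2.285 ± 0.30, limma adjusted p = 0.000161). With a WT mean of 0.286 FPKM, Tnnt3 reached the minimum of 1 FPKM through the Med1cKO group only. Ckm, which cardiomyocytes also express, fell and made up nearly all of the list's sum. That sum was 349.9 to 939 FPKM in Med1cKO libraries and 1355 to 1902 FPKM in WT libraries. Without Med1cKO 4 and WT 4, 11 members rose and 12 fell, Pfkfb3 being the one no longer called.

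Other genes around the pathway give a mixed picture. Of 32 other transporters, isozymes and pentose phosphate genes, 14 passed the minimum, of which 5 rose and 2 fell, where 44.9% of all genes tested rose and 16.4% fell, with a median log2 change of 0.21 against 0.25 for all genes. Adpgk, which phosphorylates glucose with ADP, was at 8.24, 12.8, 14.6 and 11.96 FPKM in Med1cKO ventricles, against 4.19, 4.875, 4.64 and 4.48 FPKM in WT ventricles (log2 change 1.19 ± 0.15, limma adjusted p = 0.00011). Eno2, the neuronal enolase, was at 1.44, 1.10, 1.09 and 5.75 FPKM in Med1cKO ventricles, against 0.387, 0.390, 0.259 and 0.315 FPKM in WT ventricles, and rose (log2 change 1.13 ± 0.35, limma adjusted p = 0.0181). Its high value was in Med1cKO 4, without which it missed the minimum of 1 FPKM and was not tested. Med1cKO 4 also had the highest nerve marker sum, 17.7 FPKM, whose part in the rise was not tested. With a pseudocount of 0.1 FPKM the log2 change of Eno2 was 2.13. Minpp1, a phosphatase that can act on bisphosphoglycerate, rose to 13.7 ± 1.64 FPKM in Med1cKO, against 7.13 ± 0.415 FPKM in WT (log2 change 0.85 ± 0.091, limma adjusted p = 4.94e-05).

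Among 13 genes of the polyol, fructose, galactose, hexosamine and glycerol phosphate branches 4 rose and 3 fell, or 2 and 4 after rescaling. The shares over all genes were 44.9% and 16.4% as deposited and 26.9% and 26.7% after rescaling, so the genes that rose are a smaller share here than over all genes. The median log2 change of the 13 was 0.13. Galm, which interconverts the anomers of galactose and glucose, was at 2.46, 2.105, 1.69 and 1.52 FPKM in Med1cKO ventricles, against 7.38, 8.36, 8.08 and 8.44 FPKM in WT ventricles (log2 change -1.63 ± 0.11, limma adjusted p = 4.4e-06). Akr1b3, the aldose reductase of the polyol route, averaged 4.91 ± 3.23 FPKM in Med1cKO and 13.1 ± 2.23 FPKM in WT (log2 change -1.41 ± 0.35, limma adjusted p = 0.00623). Khk, fructokinase, averaged 2.475 ± 1.33 FPKM in Med1cKO and 5.85 ± 0.891 FPKM in WT (log2 change -1.04 ± 0.23, limma adjusted p = 0.00305). Pgm3, of the hexosamine route, rose to 3.89 ± 0.973 FPKM in Med1cKO, against 2.14 ± 0.217 FPKM in WT (log2 change 0.62 ± 0.14, limma adjusted p = 0.00318; rescaled 0.42).

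Of 14 genes of GLUT4 vesicles and of the control of glucose uptake, 4 rose and 2 fell, or 3 and 5 after rescaling, with a median log2 change of 0.11. As 4 of 14, the genes that rose are a smaller share than the 44.9% of all genes, and 2 of 14 is close to the 16.4% that fell. Lnpep, an aminopeptidase that travels with GLUT4, rose where Slc2a4 fell, at 55.3, 40.7, 46.3 and 42.8 FPKM in Med1cKO ventricles, against 29.35, 21.6, 28.9 and 22.97 FPKM in WT ventricles (log2 change 0.83 ± 0.13, limma adjusted p = 0.000449). Tbc1d4, which holds GLUT4 vesicles inside the cell until insulin acts, was at 9.46, 11.45, 9.76 and 8.32 FPKM in Med1cKO ventricles, against 18.25, 16.7, 14.3 and 13.96 FPKM in WT ventricles (log2 change -0.645 ± 0.11, limma adjusted p = 0.000941). Mlx, partner of the glucose-sensing transcription factors, rose to 18.7 ± 0.8605 FPKM in Med1cKO, against 11.8 ± 0.533 FPKM in WT (log2 change 0.62 ± 0.068, limma adjusted p = 5.63e-05; rescaled 0.355). Hif1a, the hypoxia-inducible factor, rose to 32.7 ± 3.07 FPKM in Med1cKO, against 21.3 ± 2.01 FPKM in WT (log2 change 0.59 ± 0.10, limma adjusted p = 0.000574; rescaled 0.32). Its protein is controlled mainly by degradation, which these data do not measure.

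In the authors' deposited table, from the same libraries, 7 members were higher and 13 lower at q under 0.05 among the 32 tested there, where 23.1% of its 12539 tested genes were higher and 22.8% lower, 45.8% in all. The direction of the authors' deposited table and of the rescaled fit was the same for 19 called members. In the authors' deposited table Hk1 (q = 0.111), Pgk1 (q = 0.307), Pkm (q = 0.965), Ldha (q = 0.78) and G6pdx (q = 0.0642) were not called, whereas Slc2a1, Pfkp, Pfkfb3, Pgam1, Eno1, Slc16a3 and Pgd were higher. The authors' deposited table also gave Taldo1 as lower (q = 0.0142). In it Eno1 shares a row with its copy Gm5506, with a log2 fold change of 0.55.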

How the data were processed

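Per the file headers, the authors deposited 1 table with the FPKM of every gene by library and a second table of their own comparison with pooled FPKM, log2 fold changes, a test score, p-values and q-values. Reads were processed with TopHat (1.0.0), Cufflinks and Cuffdiff on mm10, per the submitters' processing notes. The annotation, like the strand setting, is not given in the sources used here. Of 23847 rows, 312 held no number in any library and 1 (Cacna2d1) lacked 1 library and was dropped. The 0.001 that the authors wrote for zero was set back to 0. Groups and replicate numbers come from the labels.

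limma (3.58.1, R 4.3.3) was fitted to log2(FPKM + 1) of all genes that averaged 1 FPKM or more, with an intensity trend; two-sided p-values were Benjamini-Hochberg adjusted over all of them and called under 0.05. Changes are Med1cKO minus WT with limma's standard errors. Median-of-ratios rescaling used size factors of 1.06 to 1.14 for Med1cKO and 0.886 to 0.920 for WT libraries. Isoform ratios used exact permutation tests (SciPy 1.17.1). The fit was tested on simulated data with as many genes raised as lowered and no shift of whole libraries. That test does not cover the shift of the median gene seen here. The 33 members, the marker lists and the other lists were chosen with earlier results of these data known. Of each other list, up to 4 called genes with the largest log2 change are named; 1 gene that this rule selects is not reported here. Alternatives were a pseudocount of 0.1, no minimum or 5 FPKM, both scalings, 3 limma settings, a replicate block and leaving out each library. Leaving out both number 4 libraries was chosen after seeing the data. Fragment depth is unknown, so no counting error is given.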

Additional observations from a re-analysis of the deposited data

Results flagged for a closer look

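Dixon's test for a library far from the other 3 of its group was run on 82 groups of values and marked 2 of them, where chance marks about 1 in 20. Tkt in Med1cKO 4 was at 20.4 FPKM, against 9.05 to 10.4 FPKM in the other Med1cKO libraries and 7.85 to 9.80 FPKM in WT libraries. Pfkfb2 in WT 3 was at 22.6 FPKM, with the other WT libraries at 24.0 to 24.1 FPKM and Med1cKO libraries at 11.7 to 14.5 FPKM.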

How the results depend on the processing

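The members' counts of 12 higher and 12 lower were the same without each library in turn (12 to 12 in both directions), while all genes gave 4888 to 5263 higher and 1787 to 1957 lower. Scaling moved the counts most. Rescaling by the median of ratios gave 7 members higher and, over all genes, 3218 higher and 3203 lower, and quantile normalization gave 3431 and 3065; by construction both move the median gene. Under rescaling the sign turned for Gpi1 (-0.27), Pfkl (-0.10), Tpi1 (-0.25) and Ldhd (-0.245), and under quantile normalization for Gpi1 (-0.13), Pfkl (-0.084), Ldhd (-0.23) and Aldoa (0.083). With array weights Tpi1 was at -0.009. Without 1 library Gpi1 ranged from -0.027 to 0.032 and Ldhd from -0.073 to 0.095. Ratio differences without 1 library ranged from -3.53 to -3.14 for Slc2a4 over Slc2a1, -1.61 to -1.40 for Hk2 over Hk1, -3.31 to -2.97 for Pfkm, -1.91 to -1.51 for Pfkfb2, -1.90 to -1.59 for Pgam2, -2.07 to -1.57 for Eno3 and -1.62 to -1.43 for Ldhb. Quantile normalization, which can change a ratio within a library, gave differences in the same order of -3.34, -1.50, -2.93, -1.78, -1.54, -1.35 and -1.31. Same-numbered libraries did not deviate together over all genes that averaged 1 FPKM or more (correlations -0.04 to 0.14). Correlations over all genes cannot tell whether the numbers pair the libraries in some genes, so pairing was not settled. A replicate block left 12 and 12 members called, and paired ratio differences were -3.33, -1.50, -3.115, -1.74, -1.79, -1.83 and -1.51, each with an exact sign-flip p of 0.125, the smallest that 4 pairs allow.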

Other observations

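Bpgm, which makes the bisphosphoglycerate of red blood cells and was chosen after its values were seen, was at 25.4, 19.6, 13.4 and 78.8 FPKM in Med1cKO ventricles, against 14.01, 28.75, 19.9 and 46.6 FPKM in WT ventricles. It was highest in Med1cKO 4 and WT 4, the libraries with the highest red blood cell marker sums, and did not pass the test (limma adjusted p = 0.849). Bsg, the chaperone that carries the lactate transporters to the cell surface, also chosen after its values were seen, was at 528, 466, 465 and 438 FPKM in Med1cKO ventricles, against 721, 849, 704 and 614 FPKM in WT ventricles. It fell in every Med1cKO library (log2 change -0.60 ± 0.11, limma adjusted p = 0.00104), while Slc16a3 rose. In the authors' deposited table the pooled level of nearly every member was above the mean over the libraries in both groups. Aldoa, for example, was at 1302 FPKM in Med1cKO and 2029 FPKM in WT, against means of 1234 FPKM in Med1cKO and 1582 FPKM in WT. Gapdh differed, with pooled levels of 562 FPKM in Med1cKO and 945 FPKM in WT. These were below its means of 827 FPKM in Med1cKO and 1149 FPKM in WT. Eno1, which shares its row with Gm5506, was below its mean in Med1cKO only, at 69.5 FPKM against 84.8 FPKM. The cause was not tested.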
